A study of Homo sapiens with 6 samples.

Results

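Xenograft tumors of mice given epinephrine were compared with those of mice given PBS for the machinery that carries a signal from adrenergic receptors to protein kinase A (PKA). The genes were listed by name across the pathway, as G protein subunits, adenylyl cyclases, phosphodiesterases, PKA subunits with their inhibitors and an anchor, Epac, CREB factors, and receptor kinases with arrestins. Of the 48 listed genes, 44 were read by a probeset annotated to that gene alone, out of 18132 genes on the array, and a gene with several such probesets was represented by the brightest. PDE4C, RAPGEF4, ATF1 and ARRB2 are not analysed here. The tumors were grown under the skin of 4- to 6-week-old NOD/SCID mice, which lack functional lymphocytes, from MDA-MB-231, a human cell line from a triple-negative breast cancer, implanted with Matrigel in both flanks. The Epi group received epinephrine under the skin at 2 mg/kg/d, given 7 days before the tumor cells, and the PBS group an equal volume of PBS. Each group has 3 arrays, numbered as replicates 1 to 3. Cells were taken from the tumors before RNA extraction, and neither labels nor paper state whether those of a group grew in different mice. The labels call the replicates biological, and a code in them differs between Epi replicate 2 and the other Epi replicates with no explanation.

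Epinephrine binds adrenergic receptors, and β receptors act through the stimulatory G protein subunit Gαs on adenylyl cyclases, which make cyclic AMP (cAMP). Inhibitory Gαi subunits restrain the cyclases, and phosphodiesterases break cAMP down. The messenger releases the catalytic subunits of PKA from their regulatory subunits, and these phosphorylate CREB and other targets, while receptor kinases and arrestins switch the receptor off. The study asked how stress hormones act on breast cancer cells through such a receptor.

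Values are the deposited log2 values of Affymetrix Human PrimeView arrays, on which 1 unit is a 2-fold difference, and a difference is always Epi minus PBS. Levels of different genes are not comparable on such arrays. The median log2 value of an array lay between 5.98 and 6.42, and both replicate 1 arrays stood apart. The replicate 1 arrays both lay below the other 4 arrays for 15 of the 44 genes and above them for 3, against 42.2% and 13.1% of all genes. Their 3' minus 5' difference of the ACTB control probesets was 2.94 and 3.17, against 1.45 to 1.72 on the other arrays, whereas that of GAPDH was lower there, at -0.12 and -0.37 against 0.15 to 0.28. The controls thus moved in opposite directions, and their part in the results was not tested. The 6 markers known to be high in MDA-MB-231, VIM and CD44 among them, read 8.46 to 14.41. Of 5 known to be low, 3 (PGR, CDH1 and EPCAM) were dim, with a mean under 5.69, the 30th percentile of all genes. The others were not dim, with ESR1 at 6.81 to 7.27 and ERBB2 at 7.81 to 9.01. Of the 25 measured markers of fibroblasts, endothelium, leukocytes, adipocytes and red blood cells, none passed the adjusted threshold of 0.05 in either fit below. In limma at an unadjusted p under 0.05, the endothelial PECAM1 and the macrophage marker CD68 passed with the block (5.22% of all genes). None did without it (1.33% of all genes). Host cells in these tumors are mouse cells, whereas the arrays are made for human genes. How far these markers read host cells was not tested, so they give no measure of host cell content. In tumors, fewer cells of a type and less RNA per cell cannot be told apart.

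Without a replicate term the adjusted p of every one of the 44 genes was 1.00 in limma with Benjamini-Hochberg adjustment. None of the 44 genes differed past the adjusted threshold of 0.05, either in limma without a replicate term, where 0.0% of all genes passed, or with the replicate number as a block, where 0.673% passed. At an unadjusted p under 0.05, 1 of the 44 passed without the block (1.33% of all genes) and 10 passed with it (5.22% of all genes). Of these 10 genes, GNAI1, PDE3B, PDE4B, PDE4D, PDE7B and PDE8A were higher in Epi tumors, where 2.12% of all genes were, and PKIA, AKAP12, CRTC3 and GRK5 were lower, where 3.09% of all genes were. The genes were listed with earlier results of these data known, so the share of 22.7% (10 of 44) carries no test. The median difference of the 44 genes was -0.018, beside -0.016 over all genes, with 19 genes above 0 and 25 below. Within pairs of the same replicate number, 9 of the 44 genes were lower in 3 of 3 pairs (13.2% of all genes) and 3 were higher in 3 of 3 (5.71% of all genes). By role, the median was highest for the phosphodiesterases, at 0.58, and lowest for the receptor kinases and arrestins, at -0.19.

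**Figure D1:**
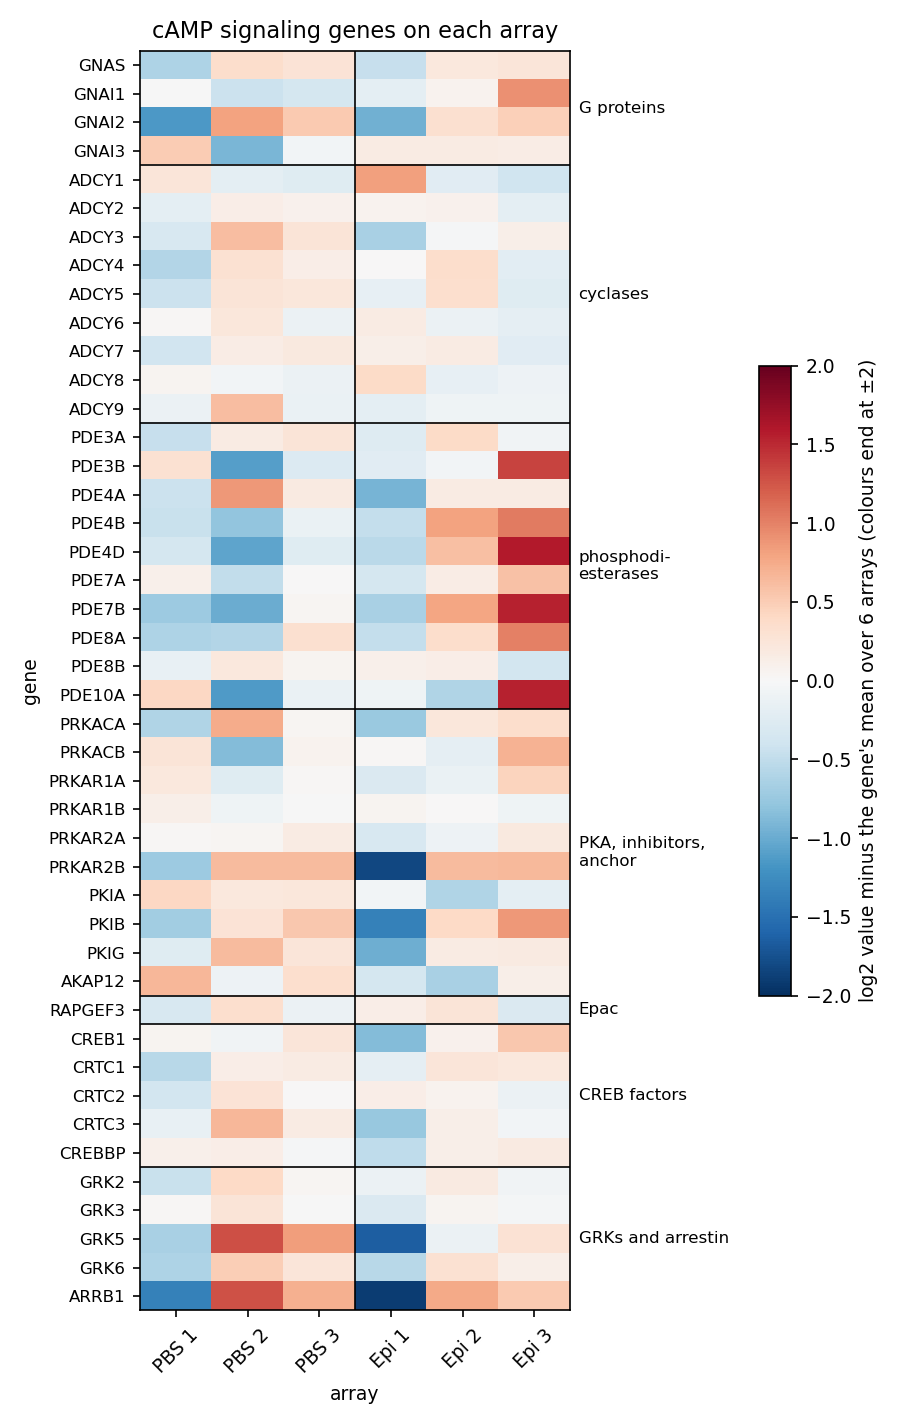
Log2 value of each of the 44 genes (rows, by role) on the 6 arrays (columns), minus the gene's mean over the 6 arrays; red is above and blue below that mean. PDE3B, PDE4B, PDE4D, PDE7B, PDE8A and PDE10A are highest on Epi replicate 3, and ARRB1, PRKAR2B, PKIB and GNAI2 are lowest on the replicate 1 arrays of both groups.

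The G protein subunits showed no difference past the threshold. GNAS, which encodes Gαs, read 12.47, 13.43 and 13.35 on PBS replicates 1 to 3 and 12.61, 13.29 and 13.33 on Epi replicates 1 to 3. The groups overlapped, and in both of them replicate 1 was the lowest. The difference was -0.0071 (standard error 0.34, 95% interval -0.78 to 0.77), and with the block the interval was -0.43 to 0.42. All 5 probesets of GNAS were slightly below 0, between -0.28 and -0.0071. GNAI1, an inhibitory subunit, read 7.91, 7.48 and 7.57 in PBS and 7.72, 7.98 and 8.84 in Epi tumors. Epi replicates 2 and 3 were above every PBS array and Epi replicate 1 was not. Its difference of 0.53 (standard error 0.33) had an unadjusted p of 0.142 without the block and of 0.0496 with it (adjusted p = 0.952 from limma with the block), and its other 2 probesets had 0.69 and 0.78. It rested largely on replicate 3, since without Epi replicate 3 it was 0.20 and with the block and without replicate 3 it was 0.16. GNAI3 read 11.64, 10.22 and 11.09 in PBS and 11.29, 11.30 and 11.28 in Epi tumors. Its difference of 0.31 (standard error 0.36) rested on PBS replicate 2, without which it was -0.074. The other probesets of GNAI3 had 0.29, -0.40 and 0.048. GNAI2 had a difference of -0.12 (standard error 0.57).

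The 9 adenylyl cyclases, the enzymes that make cAMP, stayed within a narrow range, with differences from -0.36 to 0.13 and a median of -0.018. The 4 cyclases ADCY1, ADCY4, ADCY5 and ADCY8 were dim. ADCY3, an isoform found in many tissues, read 8.70, 9.63 and 9.27 in PBS and 8.38, 8.995 and 9.14 in Epi tumors. It was the only cyclase lower in all 3 replicate pairs, and the groups overlapped (difference -0.36, standard error 0.32). ADCY9 read 7.67, 8.40 and 7.65 in PBS and 7.58, 7.69 and 7.70 in Epi tumors, so that 1 array, PBS replicate 2, stood above the rest (difference -0.25, standard error 0.27). ADCY7 was read differently by its probesets. The brightest had a difference of 0.023, and another, with a mean of 7.22, had -0.66 with no overlap between the groups. In limma fitted to all probesets its unadjusted p was 0.0184 without the block. It did not pass after adjustment in either fit (adjusted p = 0.534 with the block), and the share of all probesets without overlap was not counted.

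The phosphodiesterases, which break cAMP down, had the widest differences among the roles. Of 10 measured, 8 were above 0 and 2 below, with a median of 0.58, and with PDE3A and PDE8B left out as dim the median of the other 8 was 0.65. None passed the adjusted threshold in either fit, and 5 of the 10 passed at an unadjusted p under 0.05 with the block, all of them higher (2.12% of all genes were higher by that rule). Within the replicate pairs the median of the 10 was -0.12, 0.79 and 0.93 for replicates 1, 2 and 3, where all genes had 0.039, -0.047 and -0.080. The higher values of Epi tumors thus lay in replicates 2 and 3, and without Epi replicate 3 the median of the 10 was 0.15, without PBS replicate 2 it was 0.24.

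PDE4B and PDE4D encode cAMP-specific enzymes of the PDE4 family, the target of rolipram, and forms of both are known as cAMP-induced feedback genes in several cell types. PDE4B read 7.48, 7.14 and 7.80 in PBS and 7.45, 8.74 and 8.98 in Epi tumors. Epi replicates 2 and 3 stood well above all PBS arrays, and Epi replicate 1 lay among them. The difference was 0.91 (standard error 0.41, 95% interval -0.022 to 1.85), a 1.89-fold difference with an unadjusted p of 0.0544 without the block and of 0.00324 with it (adjusted p = 0.212 from limma). PDE4D read 7.63, 6.92 and 7.73 in PBS and 7.43, 8.58 and 9.57 in Epi tumors. Again the Epi arrays 2 and 3 were the highest and Epi replicate 1 was within the PBS range. The difference was 1.10 (standard error 0.51, 95% interval -0.058 to 2.26), with an unadjusted p of 0.0599 without and of 0.00242 with the block (adjusted p = 0.180 from limma). The 7 probesets of PDE4D were all above 0, from 0.11 to 1.17, and the 3 brightest had 1.10, 1.13 and 1.17. The 4 probesets of PDE4B were above 0 as well, from 0.22 to 0.91. PDE4A, the other family member measured, had -0.41 (standard error 0.42) on its brightest probeset, lower in 3 of 3 pairs. Only 3 of its other 6 probesets were below 0, and the mean of its probesets had -0.10, so its probesets gave no common direction.

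Of the remaining phosphodiesterases, PDE7B, PDE8A and PDE3B were singled out after their values were seen. PDE7B, a cAMP-specific enzyme insensitive to rolipram, had the largest difference of the 44 genes. It read 7.23, 6.95 and 7.98 in PBS and 7.31, 8.74 and 9.48 in Epi tumors, and only Epi replicates 2 and 3 exceeded the PBS arrays. The difference was 1.12 (standard error 0.53, 95% interval -0.094 to 2.34), with an unadjusted p of 0.0662 without the block and of 0.000843 with it (adjusted p = 0.0927 from limma). Its other probesets had 0.72 and -0.10, the last one dim at a mean of 3.30. PDE8A, a high-affinity cAMP-specific enzyme, read 9.11, 9.15 and 10.06 in PBS and 9.26, 10.09 and 10.75 in Epi tumors. It was higher in 3 of 3 pairs, by 0.15, 0.93 and 0.69, and its 3 probesets agreed closely, at 0.59, 0.63 and 0.62 (adjusted p = 0.513 from limma with the block). The difference was 0.23 without Epi replicate 3 and 0.98 without Epi replicate 1. PDE3B, which cGMP inhibits and which takes part in insulin signaling in fat cells, read 6.96, 5.54 and 6.38 in PBS and 6.42, 6.60 and 8.003 in Epi tumors. Its pair differences were -0.54, 1.05 and 1.63 (adjusted p = 0.780 from limma with the block). PDE10A followed a like course, at -0.50, 0.53 and 1.67, and PDE7A had -0.45, 0.64 and 0.57.

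**Figure D2:**
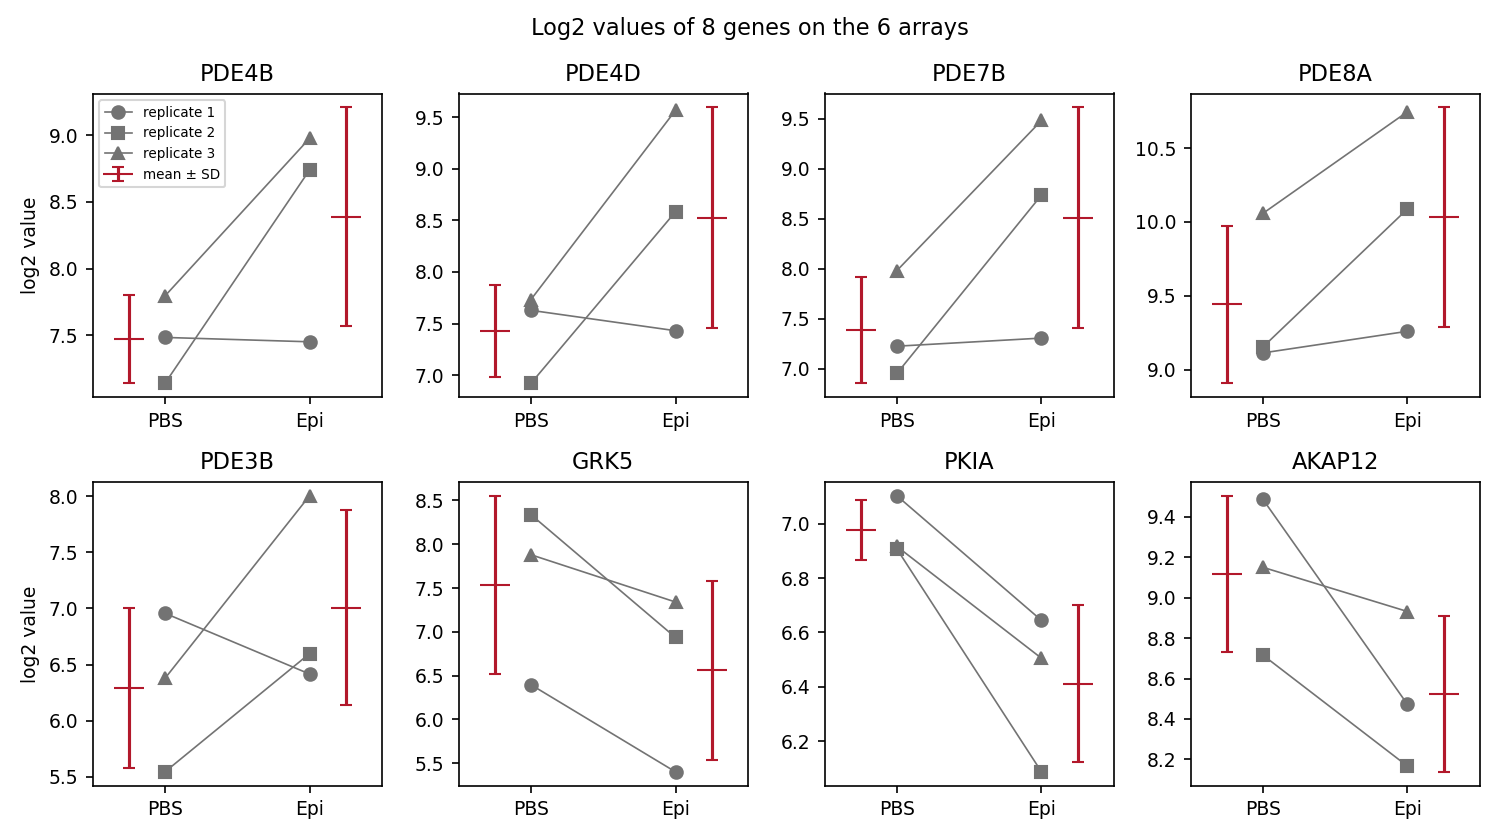
Log2 values of 8 genes on the 6 arrays, with lines joining the PBS and Epi arrays of the same replicate number and the group mean ± SD (n = 3) in red; vertical axes differ between genes and do not start at 0. PDE4B, PDE4D and PDE7B are 1.18 to 1.83 higher in Epi replicates 2 and 3 and within 0.20 of PBS in replicate 1, and PKIA is the only one of the 8 whose groups do not overlap.

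Leaving out the replicate 1 arrays moved some of the phosphodiesterases past the threshold in the fit with the block. In limma with the block on replicates 2 and 3, 4 of the 44 genes passed, where 0.893% of all genes did, and all 4 were phosphodiesterases. They were PDE4D (difference 1.75, standard error 0.16, adjusted p = 0.0112), PDE7B (1.64, standard error 0.16, adjusted p = 0.0125), PDE4B (1.39, standard error 0.17, adjusted p = 0.0244) and PDE3B (1.34, standard error 0.19, adjusted p = 0.0349). That fit rests on 2 arrays per group, and its standard errors draw mostly on the spread of all genes. They therefore say little about the spread of each of these genes. It also leaves out the replicate 1 pair, in which PDE4D, PDE7B, PDE4B and PDE3B had differences of -0.20, 0.081, -0.033 and -0.54. On the same 4 arrays without the block none of the 44 passed (0.0882% of all genes did), with an adjusted p of 0.178 from limma for PDE4B. With the block and without replicate 2, where 0.364% of all genes passed, or without replicate 3, none of the phosphodiesterases passed, and each of these fits gave all 44 genes 1 common standard error (0.32 and 0.31). Replicate 1 holds 1 array per group and gives no test, and the part of its arrays' standing apart in these differences was not tested.

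**Figure D3:**
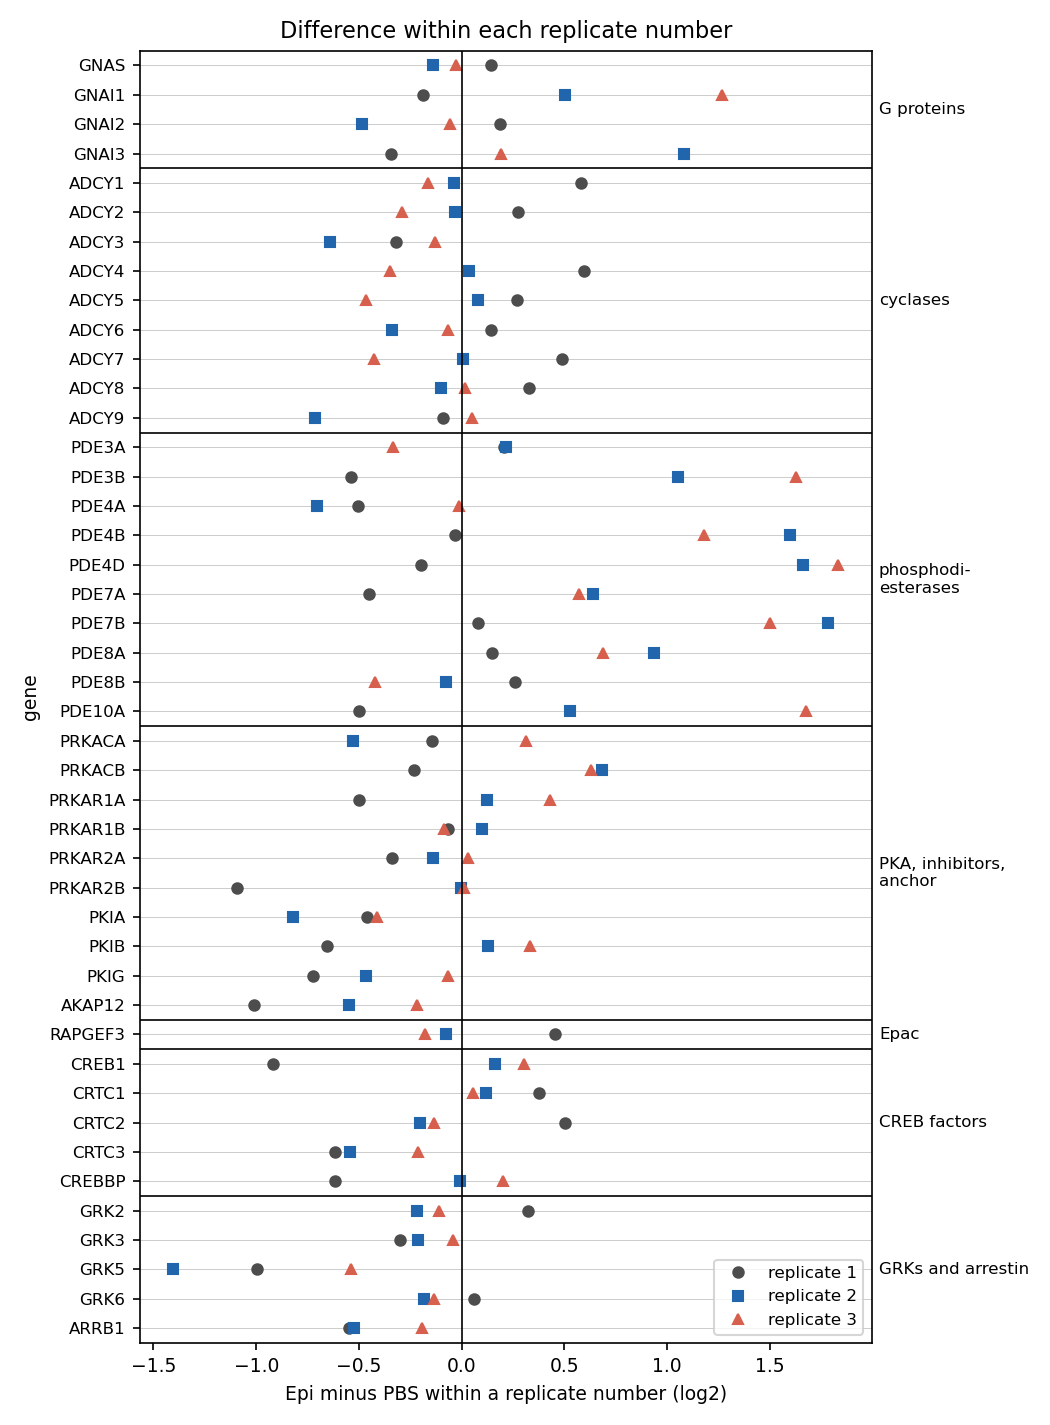
Epi minus PBS (log2) within each replicate number for the 44 genes by role, with circles for replicate 1, squares for replicate 2 and triangles for replicate 3. For PDE3B, PDE4B, PDE4D and PDE7B the squares and triangles lie between 1.05 and 1.83 and the circles between -0.54 and 0.081, and for GRK5, PKIA and AKAP12 all 3 marks lie below 0.

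The cAMP response element, TGACGTCA, is the site at which CREB binds, and it was searched for near the start sites of these genes because the signal ends at CREB. RefSeq start sites of GRCh38.p14 gave 90 windows of 300 bases (250 before to 50 after a start) for 35 of the 44 genes. The element, which reads the same on both strands, stood in 4 windows of 3 genes, and 1.85% of all 35116 windows on the genome hold it. The 3 promoters are shown because they belong to the gene with the largest difference, a PDE4 family member whose brightest probeset was below 0 and a PKA subunit that did not differ. Capitals mark each TGACG on either strand, so that the full element shows as 8 capitals.

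PDE7B, GRCh38.p14, chr6:135851451-135851750, plus strand: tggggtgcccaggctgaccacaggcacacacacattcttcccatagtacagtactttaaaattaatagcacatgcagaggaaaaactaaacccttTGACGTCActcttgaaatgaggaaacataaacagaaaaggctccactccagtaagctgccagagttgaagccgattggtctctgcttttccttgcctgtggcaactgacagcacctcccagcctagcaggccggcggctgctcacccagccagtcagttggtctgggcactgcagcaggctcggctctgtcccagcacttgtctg
PDE4A, GRCh38.p14, chr19:10416523-10416822, plus strand: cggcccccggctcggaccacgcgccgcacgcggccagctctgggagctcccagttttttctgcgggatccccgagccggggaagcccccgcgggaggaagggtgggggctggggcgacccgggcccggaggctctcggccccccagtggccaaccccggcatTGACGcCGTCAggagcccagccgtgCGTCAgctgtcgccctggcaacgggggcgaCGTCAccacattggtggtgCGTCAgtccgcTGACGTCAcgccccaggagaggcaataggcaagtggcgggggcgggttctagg
PRKAR1A, GRCh38.p14, chr17:68512180-68512479, plus strand: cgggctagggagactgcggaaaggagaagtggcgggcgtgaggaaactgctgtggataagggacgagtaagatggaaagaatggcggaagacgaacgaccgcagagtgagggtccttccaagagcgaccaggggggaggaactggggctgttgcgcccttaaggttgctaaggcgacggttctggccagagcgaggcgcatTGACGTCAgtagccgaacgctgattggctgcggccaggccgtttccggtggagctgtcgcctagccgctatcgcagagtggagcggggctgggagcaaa

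The element began 155 bases before the start site in PDE7B, 3 bases before it in PDE4A and 49 bases before it in PRKAR1A, and the same element also stood in the window of another PRKAR1A start site. Differences of the 3 genes were 1.12, -0.41 and 0.016, which is no shared direction. None of the 6 windows of PDE4B and the 8 of PDE4D held the full element, which says only that these letters are not in these windows. TGACG on either strand stood in 26 of the 90 windows and in 24.6% of all windows.

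No PKA subunit differed past the adjusted threshold. PRKACA, the main catalytic subunit, read 9.87, 11.23 and 10.51 in PBS and 9.73, 10.70 and 10.82 in Epi tumors. Replicate 1 was lowest in both groups, and the groups overlapped over nearly their whole range (difference -0.12, standard error 0.42, 95% interval -1.07 to 0.83). The catalytic subunit PRKACB had 0.36 (standard error 0.37), with pair differences of -0.23, 0.68 and 0.63. With the block and without replicate 1 it had 0.66 (unadjusted p = 0.00399, adjusted p = 0.108 from limma). The regulatory subunits PRKAR1A, PRKAR1B and PRKAR2A lay between -0.15 and 0.016. PRKAR2B had -0.36, which came from replicate 1 alone, where it read 6.09 in PBS and 5.00 in Epi, while its pair differences in replicates 2 and 3 were -0.0026 and 0.011.

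Of the inhibitor genes and the anchor, PKIA, PKIG and AKAP12 were lower in Epi tumors in 3 of 3 pairs. PKIA encodes a small protein that binds and blocks the catalytic subunit. It read 7.10, 6.91 and 6.92 in PBS and 6.64, 6.09 and 6.51 in Epi tumors, so every Epi array lay below every PBS array, which held for 2.22% of all genes. In either direction the groups did not overlap for 1 of the 44 genes and for 3.2% of all genes. The difference was -0.56 (standard error 0.24, 95% interval -1.12 to -0.0038), with an unadjusted p of 0.0488 without the block and of 0.0138 with it (adjusted p = 0.504 from limma with the block). The other probesets of PKIA, both dim, had -0.32 and -0.50. PKIG had -0.42 (standard error 0.38), but its other probesets had -0.022 and 0.071, and PKIB had -0.066. AKAP12, also called gravin, tethers PKA near the β receptor at the membrane. It read 9.49, 8.72 and 9.15 in PBS and 8.47, 8.17 and 8.93 in Epi tumors. The groups overlapped, but the Epi array was the lower one in 3 of 3 pairs, with pair differences of -1.01, -0.55 and -0.22. The difference was -0.59 (standard error 0.30, adjusted p = 0.505 from limma with the block), and its other probeset had -0.62.

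Epac, an exchange factor for the small GTPase Rap that cAMP activates apart from PKA, was represented by RAPGEF3. It read 6.09, 6.74 and 6.29 in PBS and 6.55, 6.66 and 6.12 in Epi tumors, with full overlap of the groups (difference 0.067, standard error 0.27).

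Among the CREB factors and their coactivators, differences ran from -0.46 to 0.18. CREB1, the transcription factor that PKA phosphorylates, read 7.47, 7.35 and 7.66 in PBS and 6.55, 7.51 and 7.96 in Epi tumors. Epi replicate 1 was the lowest array and Epi replicate 3 the highest (difference -0.15, standard error 0.36), and its 7 probesets ran from -0.21 to 0.17. CRTC3, a coactivator that moves to the nucleus when cAMP rises, read 8.51, 9.32 and 8.81 in PBS and 7.89, 8.78 and 8.60 in Epi tumors. It was lower in 3 of 3 pairs (difference -0.46, standard error 0.33, unadjusted p = 0.196 without and 0.0390 with the block, adjusted p = 0.855 from limma), and its other probeset, dim at a mean of 5.35, had 0.10. CRTC1 read 6.41, 7.10 and 7.13 in PBS and 6.78, 7.21 and 7.18 in Epi tumors, a difference of 0.18 (standard error 0.28). CRTC2 had 0.055 and the acetyltransferase CREBBP -0.14.

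On their brightest probesets, the 5 measured receptor kinases and arrestins were all below 0, between -0.98 and -0.0023. Of all 18132 genes, 9847 were below 0. GRK5, a kinase that phosphorylates β receptors bound to agonist, had the largest negative difference of the 44 genes. It read 6.40, 8.34 and 7.88 in PBS and 5.40, 6.93 and 7.34 in Epi tumors. The Epi array was lower in 3 of 3 pairs, with differences of -0.996, -1.40 and -0.54. The groups overlapped because PBS replicate 1, at 6.40, lay below Epi replicates 2 and 3. Without the block the difference of -0.98 had a standard error of 0.61 (unadjusted p = 0.146), and with it a standard error of 0.22 (unadjusted p = 0.000368, adjusted p = 0.0526 from limma), just outside the threshold. With the block and without replicate 3 it was -1.20 and passed (adjusted p = 0.0183 from limma, where 0.711% of all genes passed), and it was the only one of the 44 genes to do so. That fit rests on 2 arrays per group and gave every one of the 44 genes the same standard error, 0.31, so it does not measure the spread of GRK5 itself. Without the block, the difference was -1.55 without PBS replicate 1 and -0.40 without Epi replicate 1. The other 4 probesets of GRK5 lay between -0.34 and 0.22, and the mean of the 5 had -0.26 (unadjusted p = 0.154 from limma with the block). With the brightest probeset, the adjusted p of GRK5 from limma was 0.0938 with the replicate 1 arrays as a block. It was 0.206 with the replicate block and quantile normalization. GRK3 read 5.72, 5.97 and 5.70 in PBS and 5.43, 5.76 and 5.66 in Epi tumors, a difference of -0.19 (standard error 0.23). ARRB1, given because its replicate 1 arrays were seen to stand apart, encodes β-arrestin 1. It read 6.28, 8.91 and 8.35 in PBS and 5.74, 8.39 and 8.16 in Epi tumors. It was lower in 3 of 3 pairs, but the step of -2.44 from the other 4 arrays to the replicate 1 arrays was far larger than its difference of -0.42 (standard error 0.83). GRK2 and GRK6 had -0.0023 and -0.086.

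**Figure D4:**
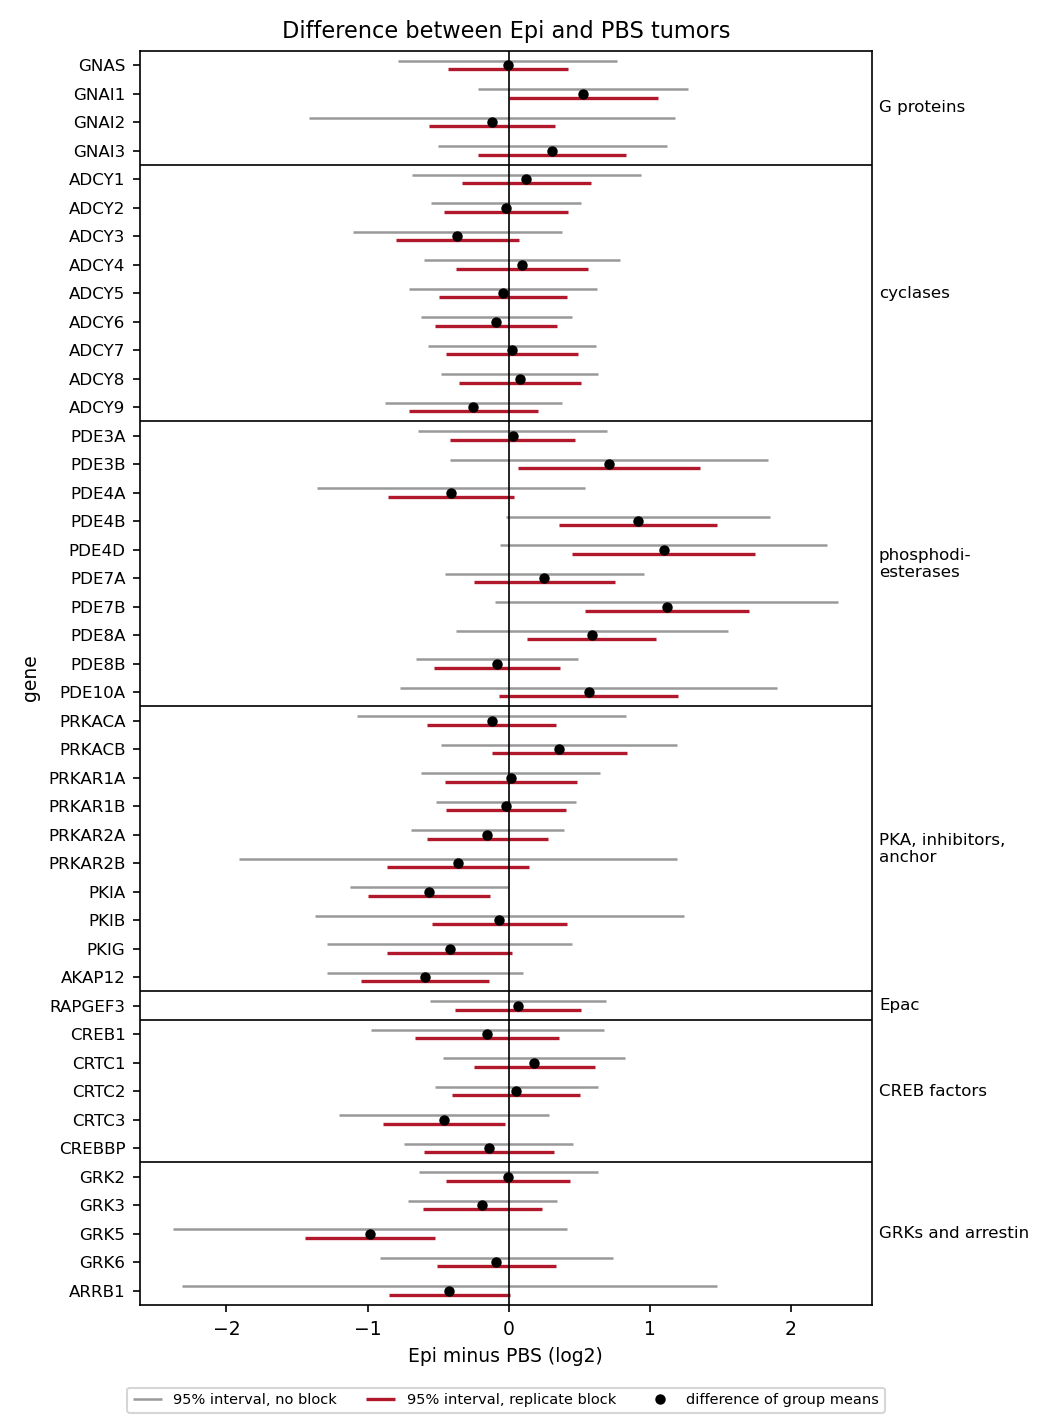
Epi minus PBS (log2) for the 44 genes by role, with dots for the difference of the group means, grey lines for its 95% interval in limma without a replicate term and red lines for that with the replicate block (3 arrays per group). Without the block only the interval of PKIA leaves out 0, at -1.12 to -0.0038, and with it those of 10 genes do, with the dot of PDE7B farthest to the right and that of GRK5 farthest to the left.

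Where a gene had several probesets, their accord differed. PDE8A, AKAP12, GNAI1, PDE4B and PDE4D had the same sign on every probeset, whereas PDE7B, GRK5, CRTC3, ADCY7 and PKIG did not. With the mean of a gene's probesets in place of the brightest one, PDE4B stood at 0.49, PDE4D at 0.67, PDE7B at 0.58 and PDE8A at 0.61.

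**Figure D5:**
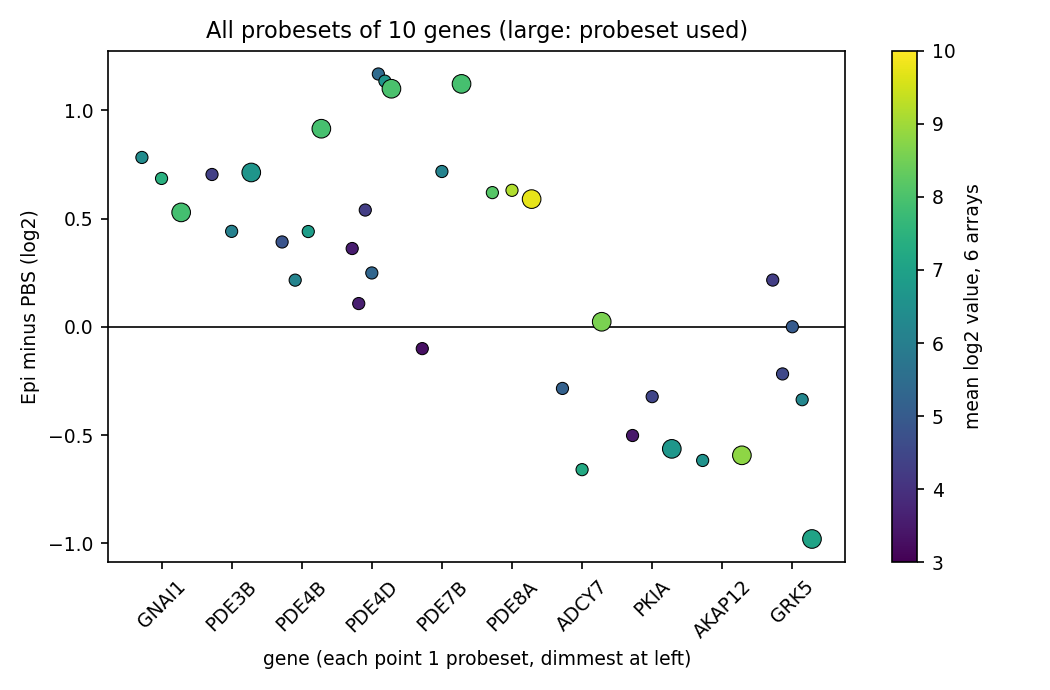
Epi minus PBS (log2) of every probeset of 10 genes, with 1 point per probeset, the dimmest at the left of each gene, colour for its mean log2 value over the 6 arrays and a large point for the one used. The 3 probesets of PDE8A lie at 0.59 to 0.63, those of PDE4D spread from 0.11 to 1.17, and those of GRK5 run from -0.98 to 0.22.

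Of 63 other names of the pathway, from Gβγ subunits to A-kinase anchors and further CREB relatives, 57 were measured. In limma none passed without the block, and 3 did at an unadjusted p under 0.05 (1.33% of all genes). With the block 2 passed (0.673% of all genes), 1 higher and 1 lower. GNG11, a Gγ subunit, read 10.15, 11.25 and 11.03 in PBS and 11.02, 12.35 and 12.40 in Epi tumors, a difference of 1.11 with pair differences of 0.88, 1.10 and 1.37 (standard error 0.20 and adjusted p = 0.0162 from limma with the block). CREB5, a transcription factor of the CREB family, was dim, at 5.72, 5.62 and 5.44 in PBS and 4.87, 4.74 and 4.39 in Epi tumors, with a difference of -0.92 (standard error 0.20, adjusted p = 0.0450 from limma with the block). CREB5 passed in no other setting, and its call was lost with the replicate 1 arrays as a block, with quantile normalization, with the mean of probesets and without any 1 of the replicates. Among the settings with a block, GNG11 kept its call except with quantile normalization and without replicate 2 or replicate 3. The median of the 57 was -0.058. Upstream, none of the 8 measured adrenergic receptor genes passed in either limma fit. At an unadjusted p under 0.05 only ADRB1 did, with the block (5.22% of all genes). The largest difference was that of ADRB1, a β receptor gene read at a dim 4.28, 5.63 and 4.92 in PBS and 3.68, 4.42 and 4.32 in Epi tumors (-0.80, adjusted p = 0.141 from limma with the block).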

How the data were processed

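Total RNA of 6 tumors (3 PBS, 3 Epi) was read on Affymetrix Human PrimeView arrays. The file the authors deposited holds a log2 value for each of 49395 probesets. RMA and Affymetrix Expression Console appear in the submitters' processing notes, with versions and the arrays normalized together not given in the sources used here. Scanner files were not used here. Of the probesets, 102 controls were left out of the tests, and 44988 with 1 gene in GEO's platform annotation gave 18132 genes, each by its brightest probeset.

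Groups were compared with limma 3.58.1 in R 4.3.3 (lmFit and eBayes, default settings, checked on simulated data), with Benjamini-Hochberg adjustment over all genes at 0.05. Arrays give no depth, and 3 per group limit the precision. The paper names no test for the arrays, and its t-test was an alternative. Deviations from the group means of same-numbered arrays had correlations of 0.630, 0.627 and 0.453, over the 0.1 set for pairing, so values with the replicate block stand beside those without. PBS replicate 3 and Epi replicate 2 had 0.523, above the 0.453 of the replicate 3 arrays, and PBS replicate 2 and Epi replicate 3 had 0.140. The check therefore cannot tell which arrays of replicates 2 and 3 form a pair. Neither paper nor labels say what a number stands for. P-values measure the spread between these arrays.

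The genes, lists and alternatives were chosen with earlier results of these data known. Named with every array's value were GNAS, PRKACA, CREB1, genes called or not overlapping, and the 2 of each role with the lowest p without the block. PDE7B, PDE8A, PDE3B, ARRB1 and ADRB1 were added after their values were seen. Start-site sequences are RefSeq's. Some genes are not reported here.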

Additional observations from a re-analysis of the deposited data

How the results depend on the processing

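No setting without the replicate block called any of the 44 genes, the methods' t-test after Benjamini-Hochberg adjustment included, and neither did limma with either block on all arrays. Counts over all genes moved from 0 to 122 with the replicate block, 40 with the replicate 1 arrays as a block, 9 with the block and quantile normalization, 81 with the block and the mean of probesets, and 16 on replicates 2 and 3 alone without the block, a setting chosen after seeing the data. With the block, leaving out replicate 1, 2 or 3 gave 162, 66 and 129 genes, of which 4, 0 and 1 were among the 44 and 1, 0 and 0 among the other pathway genes, and leaving out single arrays without the block gave 0 of each. The other pathway genes called were 2 with the replicate block, 1 with the replicate 1 arrays as a block and 1 with the block and the mean of probesets, and the gene lost was CREB5. GNAS turned to 0.051 under quantile normalization, with and without the block. CREB1 turned to 0.0061 with the mean of probesets, with and without the block, and to 0.23 on replicates 2 and 3 alone, where RAPGEF3 turned to -0.13. Without single arrays and with no block, GNAS ran from -0.31 to 0.22, PRKACA from -0.45 to 0.22, GNAI3 from -0.074 to 0.64, CREB1 from -0.46 to 0.24, CRTC1 from -0.052 to 0.32 and RAPGEF3 from -0.075 to 0.25. PDE4B ran from 0.62 to 1.38, PDE4D from 0.58 to 1.65, PDE7B from 0.64 to 1.72 and PDE3B from 0.21 to 1.05, each lowest without Epi replicate 3, and ADCY3 from -0.61 to -0.13, ADCY9 from -0.38 to -0.0012, CRTC3 from -0.64 to -0.19 and GRK3 from -0.26 to -0.091. With the block, GNAS was 0.058 without replicate 2 and 0.0026 without replicate 3, PRKACA 0.084 and GNAI3 -0.077 without replicate 2, and CREB1 0.23 and RAPGEF3 -0.13 without replicate 1. The causes were not tested. With 3 arrays per group, the interval of PRKACA spans -1.07 to 0.83 without the block and -0.58 to 0.34 with it, so differences within that range remain possible.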
